A study of Mus musculus with 6 samples.

Results

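The genes of semaphorins, plexins and neuropilins were followed in RNA of the mouse LGE, the lateral ganglionic eminence, which gives rise to the striatum and to olfactory bulb interneurons. The set was taken by gene name alone and held 34 of the 21286 genes in the deposited table. It consisted of 20 semaphorins (the ligands), 9 plexins (their receptors), the neuropilins Nrp1 and Nrp2 (coreceptors), Plxdc1 and Plxdc2 (named for a domain they share with plexins), and Crmp1, an intracellular phosphoprotein of the semaphorin response. There were 3 libraries from mutants homozygous for the loss of Dlx1 and Dlx2 (Dlx1/2 -/-) and 3 libraries from wild type littermates, all at embryonic day 16.5 and all on a mixed C57BL/6J, 129S6 and CD1 background. Dlx1 and Dlx2 encode homeobox transcription factors of the developing ventral forebrain, and the labels name no restriction of the loss to a cell type. Neither the deleted stretches nor the number of embryos behind each library is stated in the labels, and the p-values therefore cover library-to-library spread, which may be technical.

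Semaphorins are secreted or membrane-bound proteins that steer migrating neurons, growing axons and blood vessels, most often by repulsion. Plexins carry the signal into the cell, and most secreted class 3 semaphorins reach a plexin only through a neuropilin, with Sema3A acting mainly through neuropilin 1 and Sema3F through neuropilin 2. In the embryonic ventral forebrain, the developing striatum makes class 3 semaphorins that keep neuropilin-bearing cortical interneurons on a path around it, and earlier work in mouse forebrain reported that DLX proteins repress Nrp2.

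Total counts were 15670067 to 16196974 in the mutant libraries and 10711630 to 16588359 in the wild type libraries. Dlx2 had 16.1, 15.5 and 18.7 CPM (read counts scaled by library size and composition) in the mutant libraries, against 470.3, 418 and 419 CPM in the wild type libraries. Dlx1 had 109, 119 and 138 CPM in the mutant libraries, against 898, 843 and 831 CPM in wild type. Of 18 marker genes of LGE neurons and progenitors, 16 fell and 1 rose (94.4%), where 24.0% of all tested genes passed the test given below. Their summed level was 1703 to 1816 CPM in mutant LGE and 4437 to 4667 CPM in wild type. Markers of other cells moved as well. The sum over 11 markers of pallial glutamatergic neurons, the excitatory neurons of the cortex, was 201, 169 and 135 CPM in the mutant libraries and 36.2, 93.8 and 59.1 CPM in the wild type libraries. Of 9 tested, 5 rose and 0 fell (55.6%, against 24.0% of all tested genes). Neurod2 (58.6 CPM in mutant LGE against 11.1 in wild type) and Neurod6 (44.5 against 8.05) carried most of the sum. Tbr1, Eomes and Neurog2, named after their values were seen, did not pass, at log2 fold changes of −0.889, −1.005 and −1.233. Another 10 hypothalamic and ventral markers summed to 664 to 722 CPM in mutant LGE against 154 to 182 CPM in wild type. Of 7 tested, 5 rose and 1 fell (85.7%, against 24.0% of all tested genes). Pomc did not pass, and Sim1, Nr5a1 and Fezf1 were too rare to test, all named after their values were seen. Otp (445 CPM in mutant LGE against 0.557 in wild type) and Ebf3 (156 against 1.89) made up most of the mutant sum, and Pou3f4, which fell to 72.9 CPM against 160.2 CPM in wild type, most of the wild type sum; Ebf3 was likewise named after its values were seen. In tissue RNA, fewer cells of a type and less RNA per cell cannot be told apart.

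Of the 34 genes, 33 had enough reads to be tested. In mutant LGE 10 of them rose and 11 fell, which is 63.6% of those tested, where 24.0% of all 15326 tested genes passed the same test (the quasi-likelihood test of edgeR, with p adjusted by Benjamini-Hochberg and a threshold of 0.05). By direction, 11.2% of all tested genes were higher and 12.8% lower. The set is also better expressed than most genes: among the tested genes averaging at least 10 CPM, 26.5% passed, and 19 of the 28 members at that level did. Of the 33 tested members, 7 both passed and changed by at least 2-fold, as did 6.88% of all tested genes, and 8 passed with a change of less than 1.5-fold. The median log2 fold change over the 33 was −0.15, against 0.00 over all tested genes, and the median size of the change without its sign was 0.34 against 0.19. In 24 of the 33 the mutant and wild type libraries did not overlap, which held for 41.9% of all tested genes. For each of those 24, exact two-sided permutation of the 6 libraries gave p = 0.1, the smallest that 3 against 3 can reach.

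**Figure D1:**
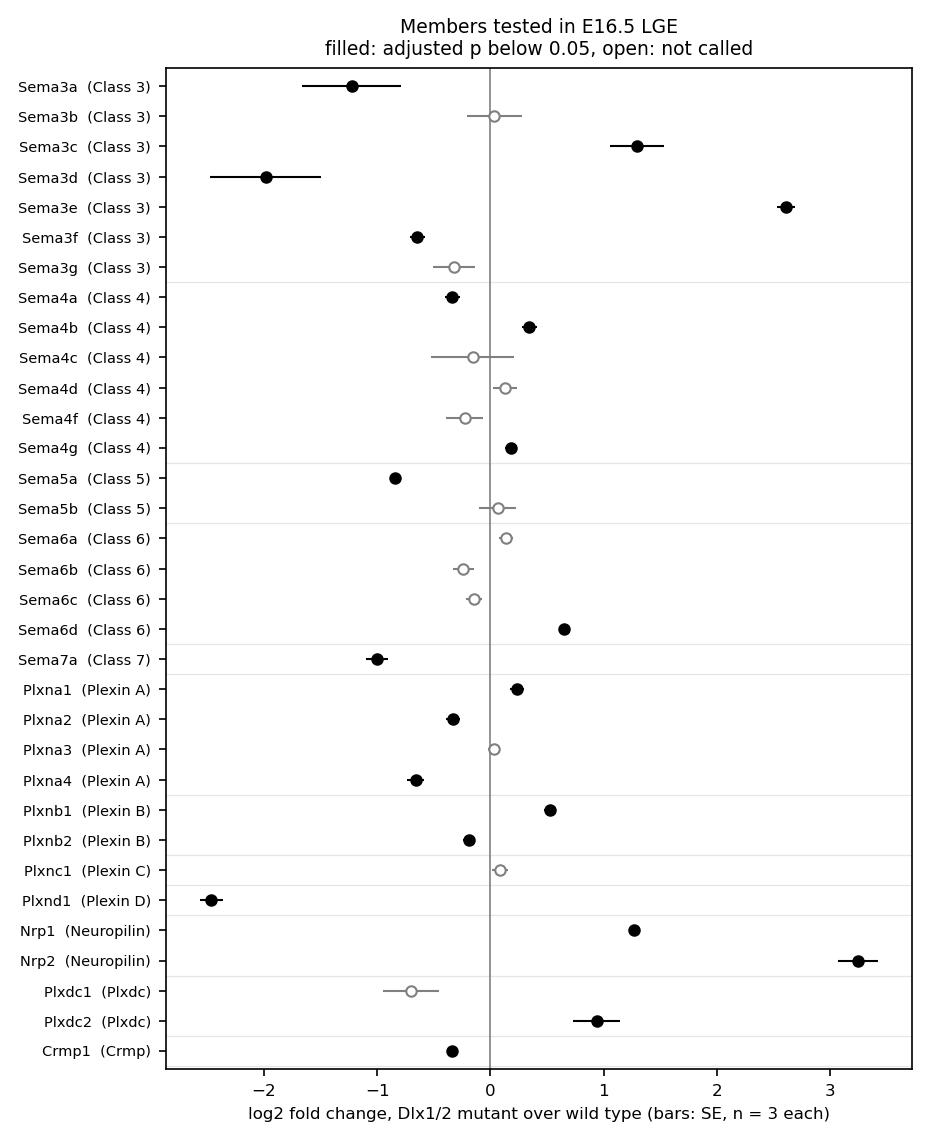
Log2 fold change of each tested member, Dlx1/2 mutant over wild type, with its standard error (n = 3 libraries each), ordered by class; filled points passed the test at an adjusted p below 0.05 and open points did not. Nrp2 at 3.24 and Sema3e at 2.61 lie farthest to the right, and Plxnd1 at −2.46 and Sema3d at −1.98 farthest to the left.

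The 3 members with the largest changes were Nrp2, Sema3e and Plxnd1, and with Nrp1, the other neuropilin, they are shown here by the stretch before their RefSeq start. The letters come from RefSeq on GRCm38.p6 and run 5′ to 3′ on the strand of the gene. Capitals mark TAAT or its reverse complement ATTA, the short core that homeodomain proteins such as DLX1 and DLX2 can contact. The stretches are Nrp2, plus strand, chr1:62703067-62703284; Nrp1, plus strand, chr8:128358823-128359072; Sema3e, plus strand, chr5:14025026-14025275; and Plxnd1, minus strand, chr6:115995006-115995255.
Nrp2: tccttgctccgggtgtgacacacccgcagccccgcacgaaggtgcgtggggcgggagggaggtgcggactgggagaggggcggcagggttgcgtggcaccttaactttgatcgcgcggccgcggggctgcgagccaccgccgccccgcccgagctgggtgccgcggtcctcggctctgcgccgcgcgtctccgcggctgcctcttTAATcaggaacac
Nrp1: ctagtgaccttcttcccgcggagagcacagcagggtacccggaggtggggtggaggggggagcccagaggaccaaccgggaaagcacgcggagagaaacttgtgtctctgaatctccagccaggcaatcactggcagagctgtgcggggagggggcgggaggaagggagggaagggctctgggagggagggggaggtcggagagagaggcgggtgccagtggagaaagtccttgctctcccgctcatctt
Sema3e: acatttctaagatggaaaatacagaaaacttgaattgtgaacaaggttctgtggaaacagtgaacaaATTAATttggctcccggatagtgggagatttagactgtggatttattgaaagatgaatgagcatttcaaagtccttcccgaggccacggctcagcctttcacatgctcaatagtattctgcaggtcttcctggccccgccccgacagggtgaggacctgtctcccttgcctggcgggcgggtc
Plxnd1: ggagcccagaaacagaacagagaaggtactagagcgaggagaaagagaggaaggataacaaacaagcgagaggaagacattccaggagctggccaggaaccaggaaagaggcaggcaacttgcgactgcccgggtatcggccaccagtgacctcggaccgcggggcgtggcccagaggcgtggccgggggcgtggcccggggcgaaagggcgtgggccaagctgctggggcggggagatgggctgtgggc
The window searched was the 250 bases before each RefSeq start. In the Nrp2 window the last 32 bases, which GENCODE M21 places in an exon, are left off here. The Nrp1 window lies inside the gene as GENCODE M21 draws it, whose start is at 128358604, and overlaps none of its exons. The Nrp2 window held TAAT at 2 places, 1 of them in the letters left off. Sema3e held ATTA and TAAT overlapping as ATTAAT, and the Nrp1 and Plxnd1 windows held neither. Windows were found for 27 of the 34 members, 39 windows in all. The longer core TAATTA, which reads the same on both strands, was in 0 of these 39 and in 4.84% of all 32851 windows of that length. TAAT or ATTA, which TAATTA contains, was in 14 of the 39 (35.9%), against 54.9% of all windows. The members' windows were richer in G and C, with a median of 64.0% against 52.4%.

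Both neuropilins rose, and they rose unequally. Nrp2, the coreceptor for Sema3F, stood at 102, 83.3 and 86.0 CPM in the mutant libraries, against 7.55, 10.1 and 10.7 CPM in the wild type libraries. Every mutant library lay well above every wild type library, a 9.46-fold rise with a log2 fold change of 3.24 ± 0.179 (SE) and adjusted p = 3.12e-06. Nrp1, the coreceptor for Sema3A and also for vascular endothelial growth factor, stood at 89.5, 90.96 and 93.2 CPM in the mutant libraries, against 37.8, 36.7 and 39.0 CPM in wild type. The libraries of each genotype lay within a few CPM of each other, and Nrp1 rose 2.41-fold (log2 fold change 1.27 ± 0.030, adjusted p = 4.27e-06). The deposited FPKM scale divides by gene length, so different genes can be compared as far as those lengths hold. On it, the 2 neuropilins summed to 22.1 ± 0.612 FPKM in mutant LGE and 7.03 ± 0.300 FPKM in wild type (SD, n = 3 each). Nrp2 made up 29.6 ± 2.62% of that sum in mutant LGE and 9.58 ± 1.52% in wild type, and Nrp1 exceeded Nrp2 2.39 ± 0.286 times in mutant LGE and 9.64 ± 1.86 times in wild type. These values depend on the lengths used. The length behind the FPKM was 13894 bases for Nrp2, the sum of its exons, but 5907 for Nrp1, whose exons sum to 11452. Per length of the longest transcript, Nrp1 exceeded Nrp2 1.88 ± 0.223 times in mutant LGE and 7.56 ± 1.46 times in wild type. Endothelial cells are another known site of Nrp1. Of their 13 markers tested, 0 rose and 2 fell (15.4%, against 24.0% of all tested genes). The endothelial sum was 228 to 243 CPM in mutant LGE against 253 to 282 CPM in wild type. Its largest part was Slc2a1, which fell (59.3 CPM in mutant LGE against 77.5 in wild type). The summed pallial markers given above were higher in every mutant library than in any wild type library, mostly through Neurod2 and Neurod6. Of the 9 tested, 5 rose and 0 fell, but Tbr1, Eomes and Neurog2, which did not pass, had lower means in mutant LGE. The part of either cell type in the rise of the neuropilins was not tested.

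**Figure D2:**
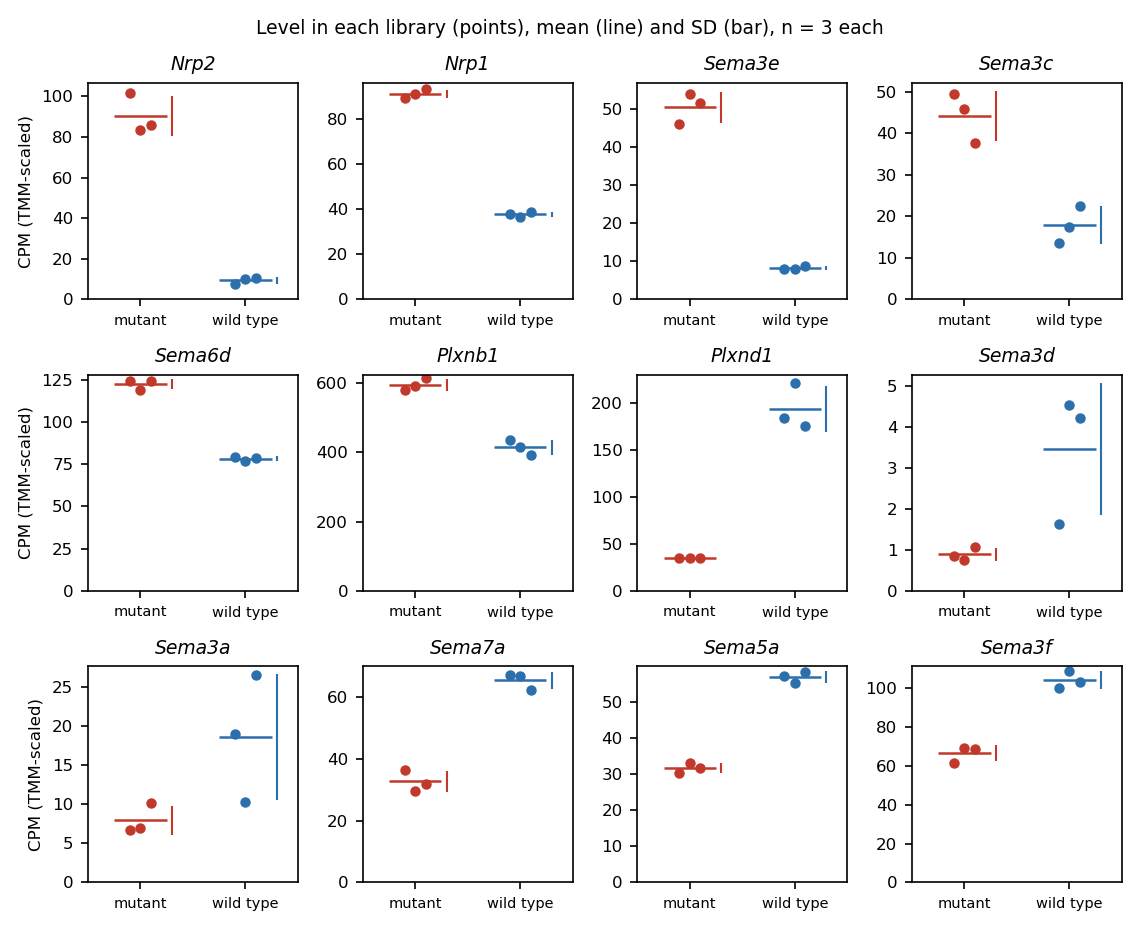
CPM of 12 members that passed the test, with 1 point per library, the mean as a line and the SD as a bar, mutant left of wild type (n = 3 each). The groups do not overlap in any of the 12, and the wild type libraries are widely spread for Sema3a and Sema3d.

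The secreted class 3 semaphorins parted into a rising pair and a falling trio. Sema3e, whose receptor is plexin D1 and which needs no neuropilin to bind it, stood at 46.03, 53.9 and 51.5 CPM in the mutant libraries, against 7.93, 8.05 and 8.74 CPM in wild type. The groups were far apart and each was tight, and Sema3e rose 6.11-fold (log2 fold change 2.61 ± 0.080, adjusted p = 1.52e-06). Sema3c, a ligand that can use either neuropilin, stood at 49.4, 45.8 and 37.6 CPM in the mutant libraries, against 13.7, 17.4 and 22.6 CPM in wild type. Its groups did not overlap although each was spread, and it rose 2.45-fold (log2 fold change 1.29 ± 0.240, adjusted p = 0.00147).

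Sema3f, the class 3 gene with the highest mean FPKM in both genotypes, stood at 61.7, 69.2 and 68.8 CPM in the mutant libraries, against 99.9, 109 and 103 CPM in wild type. All mutant libraries were lower, and Sema3f fell by 0.64 ± 0.065 on the log2 scale (adjusted p = 0.000325), a 1.56-fold difference. Sema3a, a repellent of cortical interneurons and many axons, stood at 6.76, 7.02 and 10.1 CPM in the mutant libraries, against 18.9, 10.3 and 26.5 CPM in wild type. The groups stayed apart by a narrow margin because wild type replicate 2 was close to mutant replicate 3, and Sema3a fell by 1.22 ± 0.438 (adjusted p = 0.0298). That call was lost when any of 4 libraries was left out, with adjusted p = 0.101 without mutant replicate 1, 0.0931 without mutant replicate 2, 0.0608 without wild type replicate 1 and 0.0846 without wild type replicate 3. Sema3d was rare, with 0.853, 0.759 and 1.07 CPM in the mutant libraries, against 1.63, 4.54 and 4.22 CPM in wild type. These levels rest on 43 reads over the mutant group and 157 over the wild type group, and Sema3d fell by 1.98 ± 0.488 (adjusted p = 0.00877). Sema3b and Sema3g, at means of 2.43 to 6.09 CPM in either genotype, did not pass and overlapped between groups.

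The summed class 3 level was 17.9 ± 0.643 FPKM in mutant LGE and 16.9 ± 1.04 FPKM in wild type, with overlapping libraries, while its make-up was different. Sema3c and Sema3e together made up 49.1, 47.5 and 44.1% of the class 3 sum in the mutant libraries, against 11.9, 13.0 and 15.8% in the wild type libraries. Sema3f made up 42.2, 44.0 and 45.6% in the mutant libraries, against 72.6, 73.4 and 68.3% in wild type. Sema3a made up 2.57 ± 0.609% in mutant LGE and 6.24 ± 2.63% in wild type, and its shares overlapped between genotypes when levels were set per length of the longest transcript instead of by FPKM.

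**Figure D3:**
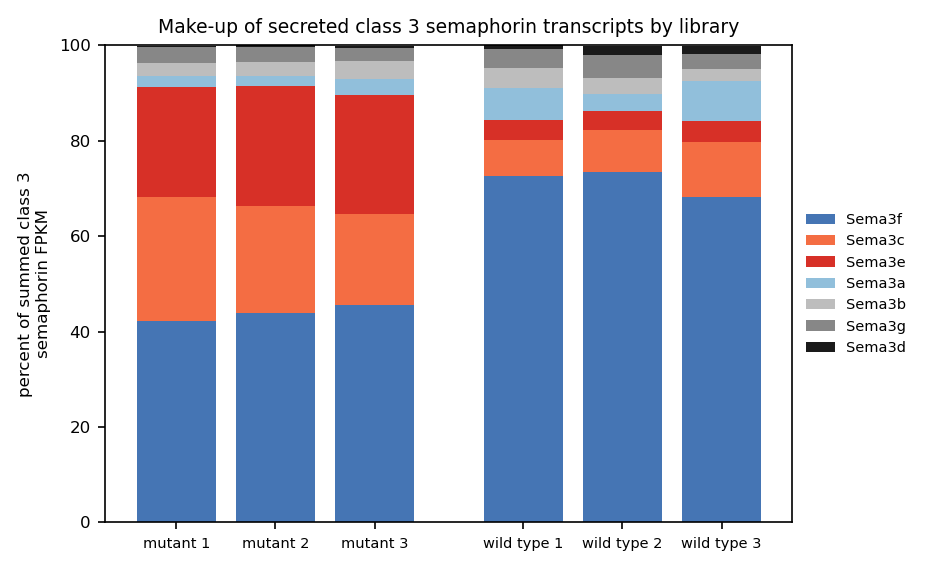
Share of each class 3 semaphorin in the summed class 3 FPKM, in percent, by library, with the mutant libraries left of the wild type libraries. The share of Sema3c and Sema3e is 44.1 to 49.1% in the mutant bars and 11.9 to 15.8% in the wild type bars, and Sema3f is the largest wild type share at 68.3 to 73.4%.

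Sema3d, Sema3a, Sema3e and Sema3c lie in this order on the plus strand of chromosome 5, and they did not move together. Within 5.35 Mb stand Sema3d (12383385 to 12588948, GRCm38), Sema3a (13125414 to 13602565), Sema3e (14025276 to 14256689) and Sema3c (17574281 to 17730268). Sema3d and Sema3a fell and Sema3e and Sema3c rose, with 423 kb between the end of Sema3a and the start of Sema3e. Of 6 other tested genes in that span, 2 were higher and 1 was lower, where 11.2% of all tested genes were higher and 12.8% lower. So few genes do not describe the span.

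Among the receptors, Plxnd1 changed most. Plexin D1 is the receptor of Sema3E, known in the striatum from neurons that project to the substantia nigra and also made by endothelial cells. Plxnd1 stood at 34.7, 35.3 and 35 CPM in the mutant libraries, against 184, 221 and 175 CPM in the wild type libraries. The mutant libraries were nearly equal and far below wild type, a 5.52-fold fall (log2 fold change −2.46 ± 0.102, adjusted p = 1.81e-06). Plxnd1 gave 1.96 ± 0.0348% of the summed plexin FPKM in mutant LGE and 9.99 ± 1.22% in wild type, and ranked 22 of the 34 members by mean FPKM in mutant LGE against 6 in wild type. Of the 13 endothelial markers, Slc2a1 and Flt1 fell, by 0.386 and 0.309 on the log2 scale, and 11 did not pass, among them Pecam1, Cdh5 and Cldn5 at log2 fold changes of −0.02, −0.10 and −0.12 (all but Slc2a1 named after their values were seen). Slc2a1 had the highest mean CPM of the 13, at 59.3 in mutant LGE against 77.5 in wild type. It weighs most in the endothelial sum, which was lower in every mutant library. So was the sum of the 18 LGE markers given above, of which 16 fell and 1 rose. Among those that fell were Drd1 (0.643 CPM in mutant LGE against 19.8 in wild type), Tac1 (3.34 against 48.2) and Drd2 (3.65 against 23.8), also named after their values were seen. The part of endothelial cells or of LGE neurons in the fall of Plxnd1 was not tested. The ratio of Plxnd1 to Sema3e was 1.07, 0.930 and 0.964 in the mutant libraries and 32.9, 38.9 and 28.4 in the wild type libraries on the FPKM scale. For the other matched pair, Sema3f and its coreceptor Nrp2, the ratio was 0.984, 1.35 and 1.3 in the mutant libraries and 21.5, 17.6 and 15.6 in wild type. Both ratios depend on the lengths used. Per length of the longest transcript, Plxnd1 to Sema3e was 0.691 ± 0.0505 in mutant LGE and 23.4 ± 3.69 in wild type (SD, n = 3 each). Sema3f to Nrp2 was 1.48 ± 0.242 in mutant LGE and 22.2 ± 3.65 in wild type on that scale.

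**Figure D4:**
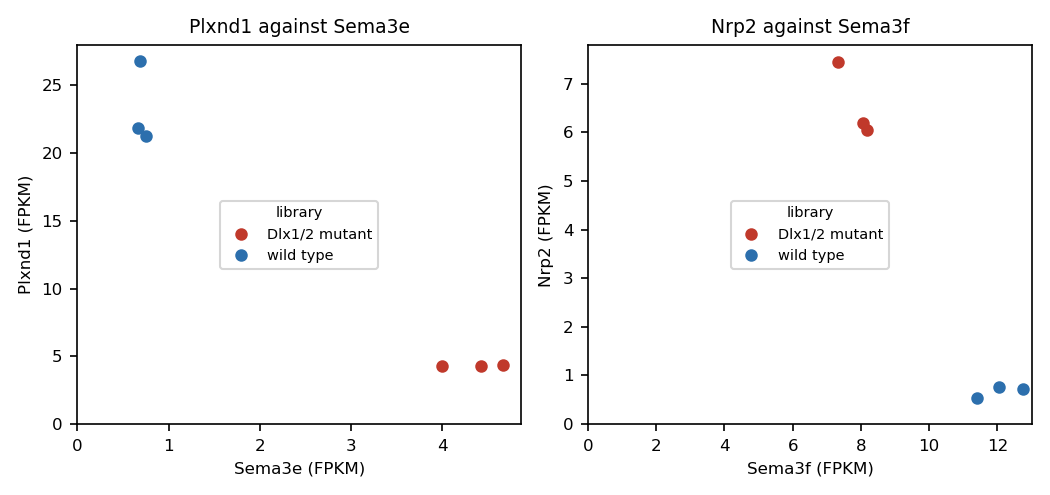
FPKM of a receptor (vertical axis) against that of its ligand (horizontal axis) in each library, for Plxnd1 with Sema3e and for Nrp2 with Sema3f. Mutant libraries have 4.001 to 4.67 FPKM of Sema3e with 4.26 to 4.34 FPKM of Plxnd1, and wild type libraries 0.664 to 0.749 FPKM of Sema3e with 21.3 to 26.8 FPKM of Plxnd1.

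The other plexins changed by less than 2-fold. Plxnb1, the receptor of Sema4D, stood at 579, 592 and 614 CPM in the mutant libraries, against 435, 416 and 393 CPM in wild type, with the groups apart. It rose 1.44-fold (log2 fold change 0.52 ± 0.049, adjusted p = 0.00031); an antisense gene, Gm7628, shares exon bases with it, and without a stated strand setting the reads of such pairs cannot be told apart. Plxna4, a receptor for Sema6 proteins and a partner of neuropilin 1, stood at 146, 137 and 147 CPM in the mutant libraries, against 208, 224 and 245 CPM in wild type. All mutant libraries were lower and Plxna4 fell by 0.66 ± 0.074 (adjusted p = 0.000244), with the antisense Plxna4os3 overlapping it. Plxna2, a receptor for Sema6A, had 638, 620 and 635 CPM in the mutant libraries, against 856, 743 and 779 CPM in wild type. It too was lower in every mutant library, by 0.33 ± 0.062 (adjusted p = 0.00689).

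Smaller differences were seen in Plxna1 and Plxnb2, and neither call held throughout. Plxna1, a partner of neuropilins and a receptor for Sema6D, averaged 228 ± 16 CPM in mutant LGE and 194 ± 3.3 CPM in wild type (SD, n = 3 each), a difference of 0.24 ± 0.059 on the log2 scale (adjusted p = 0.0195). The call was lost without wild type replicate 1 (adjusted p = 0.0545) and without wild type replicate 2 (0.0676), and the antisense Gm26811 overlaps it. Plxnb2, the receptor of Sema4C, averaged 374 ± 9.40 CPM in mutant LGE and 426 ± 23.2 CPM in wild type, a difference of −0.19 ± 0.050 on the log2 scale (adjusted p = 0.0352). That call was lost when any library but wild type replicate 3 was left out, with adjusted p = 0.116 without mutant replicate 1, 0.0946 without mutant replicate 2, 0.0582 without mutant replicate 3, 0.0658 without wild type replicate 1 and 0.0709 without wild type replicate 2. It was also lost with the replicate number as a block (adjusted p = 0.0974). Plxna3 and Plxnc1, the receptor of Sema7A, did not pass and overlapped between groups, at log2 fold changes of 0.03 and 0.08. Plxnb3 was too rare to test, with 12 reads over the mutant group and 16 over wild type.

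**Figure D5:**
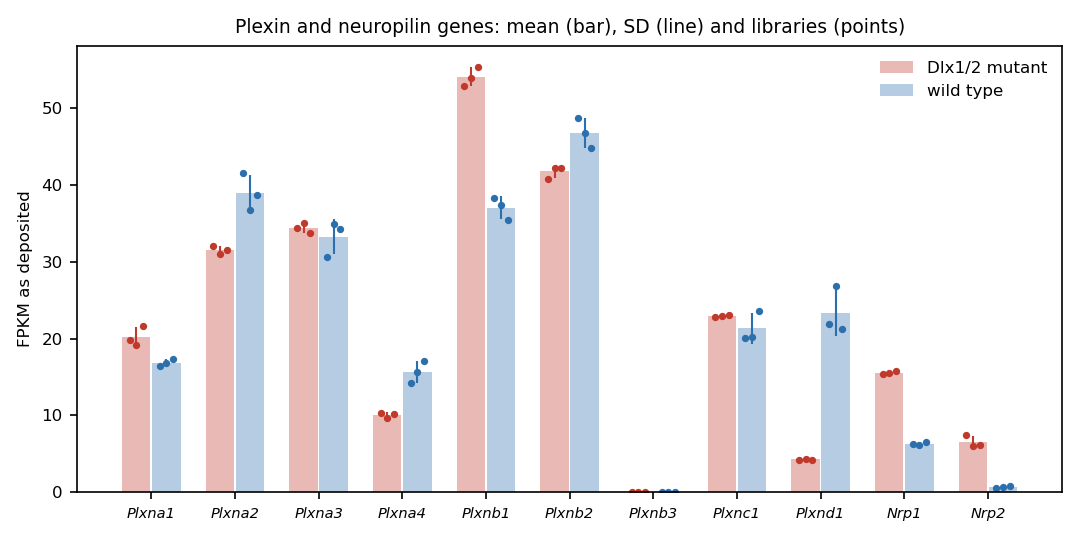
Deposited FPKM of the 9 plexins and the 2 neuropilins, with the mean as a bar from 0, the SD as a line and 1 point per library (n = 3 each), mutant left of wild type. Plxnb1 averages 54.0 FPKM in mutant LGE against 37.0 in wild type, Plxnd1 4.29 against 23.3, and Plxnb3 is near 0 in both.

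By level, Crmp1 stood first in both genotypes, at 97.3 ± 1.85 FPKM in mutant LGE and 121 ± 5.92 FPKM in wild type, followed by 4 plexins. In mutant LGE these were Plxnb1 (54.0 ± 1.24 FPKM), Plxnb2 (41.7 ± 0.835), Plxna3 (34.4 ± 0.663) and Plxna2 (31.5 ± 0.529), with no overlap between neighbours. In wild type LGE they were Plxnb2 (46.7 ± 1.98 FPKM), Plxna2 (39.0 ± 2.36), Plxnb1 (37.0 ± 1.48) and Plxna3 (33.2 ± 2.26), and Plxna2 and Plxnb1 overlapped. Per length of the longest transcript the same 4 plexins followed Crmp1, in another order. The summed plexin level was 219 ± 2.42 FPKM in mutant LGE and 233 ± 1.88 FPKM in wild type, a ratio of 0.940.

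Of the 13 membrane-bound semaphorins, 3 rose, 3 fell and 7 did not pass, where 24.0% of all tested genes passed. Sema7a, the member held to the membrane by a lipid anchor, stood at 36.6, 29.7 and 32.0 CPM in the mutant libraries, against 67.4, 66.8 and 62.5 CPM in wild type. The groups were well apart, and Sema7a fell by 0.999 ± 0.095 on the log2 scale (adjusted p = 0.000122). Sema5a, an axon repellent in the mouse retina, stood at 30.4, 32.9 and 31.7 CPM in the mutant libraries, against 57.2, 55.2 and 58.3 CPM in wild type. It too was lower in every mutant library, by 0.85 ± 0.041 (adjusted p = 5.47e-05), while its relative Sema5b averaged 130 ± 18.8 CPM in mutant LGE and 124 ± 16.8 CPM in wild type and did not pass (adjusted p = 0.753). Sema6d, a ligand of plexin A1, stood at 124, 119 and 124 CPM in the mutant libraries, against 79.5, 76.7 and 78.4 CPM in wild type. The groups were tight and apart, and Sema6d rose 1.57-fold (log2 fold change 0.65 ± 0.026, adjusted p = 6.15e-05).

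The other class 6 members, Sema6a, Sema6b and Sema6c, did not pass, at log2 fold changes of 0.14, −0.24 and −0.15, although the libraries of Sema6a and Sema6b did not overlap. Sema6b passed when wild type replicate 1 was left out (adjusted p = 0.0169). In class 4, Sema4b rose slightly, with 47.9, 46.5 and 50.7 CPM in the mutant libraries against 40.4, 35.5 and 38.7 CPM in wild type (log2 fold change 0.34 ± 0.066, adjusted p = 0.0122). Sema4a, known from the immune system and retina, fell by 0.34 ± 0.063, to 39.7, 42.4 and 39.1 CPM in the mutant libraries, against 47.3, 52.6 and 52.8 CPM in wild type (adjusted p = 0.0116). Sema4g averaged 181 ± 5.04 CPM in mutant LGE and 160.1 ± 9.07 CPM in wild type. It passed by a narrow margin (log2 fold change 0.18 ± 0.053, adjusted p = 0.0486). The call was lost without any 1 of the 6 libraries, at adjusted p = 0.0575 to 0.136, and with DESeq2 (0.069). It was also lost with the replicate number as a block (0.107), without the filter on low counts and with thinned counts. Sema4c, the ligand of plexin B2, differed more between libraries than between genotypes, with 79.7, 127 and 74.9 CPM in the mutant libraries against 120.3, 126 and 68.8 CPM in wild type. Its exons overlap those of the antisense D430040D24Rik, and neither it nor Sema4d and Sema4f passed.

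Crmp1, which is phosphorylated in the response to Sema3A, fell by 0.34 ± 0.037, with 928, 967 and 965 CPM in the mutant libraries against 1163, 1252 and 1212 CPM in wild type (adjusted p = 0.00255). All mutant libraries were below all wild type libraries. Its relatives Dpysl2, Dpysl4 and Dpysl5, which encode other collapsin response mediators, did not pass, at log2 fold changes of −0.14, 0.13 and −0.05, and Dpysl3 fell by 0.27 ± 0.023 (adjusted p = 0.0077). Plxdc2 rose, with 13.2, 13.7 and 9.74 CPM in the mutant libraries against 6.50, 5.26 and 7.36 CPM in wild type (log2 fold change 0.94 ± 0.209, adjusted p = 0.00707). Plxdc1 was near 1 CPM, with 35 reads over the mutant group and 51 over wild type, and did not pass (log2 fold change −0.70 ± 0.249, adjusted p = 0.134).

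Genes that semaphorin receptors work with, listed from general knowledge of the pathway, moved in both directions. Among 18 coreceptors and signalling partners outside the family, 4 rose and 4 fell (44.4%, against 24.0% of all tested genes; median log2 fold change 0.07). Met, the hepatocyte growth factor receptor, which can associate with plexin B1, had 19.9, 23.3 and 12.8 CPM in the mutant libraries against 0.669, 1.62 and 2.05 CPM in wild type (log2 fold change 3.601 ± 0.535, adjusted p = 0.000181). L1cam, an adhesion molecule that takes part in the Sema3A receptor, averaged 186 ± 3.20 CPM in mutant LGE and 336 ± 21.3 CPM in wild type, a log2 fold change of −0.85 ± 0.055 (adjusted p = 2.22e-05). Cntn1, a neuronal adhesion molecule, fell by 1.19 ± 0.140, and Erbb2, another tyrosine kinase partner of plexin B1, rose by 0.64 ± 0.044. Among 42 intracellular effectors, 7 rose and 7 fell (33.3%; median −0.05). Mical2, of the MICAL oxidoreductases that act on actin below plexins, averaged 13.6 ± 1.09 CPM in mutant LGE and 3.84 ± 0.978 CPM in wild type (log2 fold change 1.80 ± 0.223, adjusted p = 0.000224), while its relative Mical3 fell by 0.38 ± 0.035. Rnd1, a small GTPase that binds plexins, rose by 0.77 ± 0.109. Over both lists, 11 rose and 11 fell of 60; without wild type replicate 2 the numbers were 6 and 8, and without mutant replicate 1 they were 7 and 8.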

How the data were processed

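Whole-number counts per gene and FPKM were deposited by the authors in 1 table, per the file headers. Per the submitters' processing notes the build was GRCm38.p4 (mm10) and the tools, with no roles given, were edgeR, StringTie 1.3.0 and HISAT2 2.0.4. Not given in the sources used here are the program that counted reads, its annotation and any strand setting. Deposited p-values were not used. In 26 of 34 members the length behind the FPKM equals the sum of distinct exons in GENCODE M21 within 0.1%, so genes with many alternative exons read low; CPM per kb of the longest transcript was the alternative.

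Counts were fitted in R 4.3.3 with edgeR 4.0.16 (filterByExpr, TMM, quasi-likelihood F test, two-sided, Benjamini-Hochberg over 15326 genes); this was tested on simulated data. CPM are TMM-scaled, and each SE comes from log2 CPM with 0.5 added to the counts. Alternatives were RLE scaling, a replicate block, each library left out in turn, no filter, DESeq2 1.42.0, an adjusted p below 0.01, and thinning, chosen after seeing the data. No batch is labelled, so a batch that follows genotype cannot be told apart from it, and no replicates were alike within sampling noise (chi-square per degree of freedom 7.15 to 14.3). Same-numbered libraries gave no sign of pairing.

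Members were taken by name, and every member may be named. Members, pathway lists and marker lists were chosen with earlier results of these data known. From the pathway lists, some of the members with the smallest adjusted p and the relatives of Crmp1 are named.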

Additional observations from a re-analysis of the deposited data

How the results depend on the processing

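Of the 21 members called, 17 kept their call under each of 11 alternatives at the 0.05 threshold and none changed direction; the exceptions were Sema3a, Plxna1, Plxnb2 and Sema4g. At an adjusted p below 0.01, 15 members passed, and over all genes 1991 passed (875 higher, 1116 lower) in place of 3673. Of the 60 pathway genes, 22 passed at first, 13 (6 higher, 7 lower) at the stricter threshold, and 14 to 23 (6 to 10 higher, 8 to 13 lower) with 1 library left out. Apart from these and the pathway counts under the replicate block below, the counts of genes called stayed within 1.5 times. Uncalled members near 0 changed sign with 1 library left out, where log2 fold changes ran from −0.15 to 0.15 for Sema3b, −0.058 to 0.17 for Sema5b and −0.023 to 0.055 for Plxna3; the cause was not tested.

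Per length of the longest transcript, Nrp2 gave 34.9% of the neuropilin sum in mutant LGE and 11.9% in wild type, Sema3f 50.5% and 74.4% of class 3, and Plxnd1 1.63% and 8.32% of the plexins, with the same order of genotypes; the lengths themselves set these shifts. Searching TAAT in place of TAATTA gave 14 of 39 windows in place of 0, as the shorter letters must match more often.

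With the replicate number as a block, 19 members (9 higher, 10 lower), 14 pathway genes (7 higher, 7 lower) and 2680 genes passed. Deviations of same-numbered libraries correlated at −0.18, 0.04 and −0.17, and those of other pairs at −0.136 to 0.25. These values gave no sign of pairing, but with 3 libraries per group they cannot exclude it. Depth limits Plxnb3, Plxdc1 and Sema3d, where a floor of 3 counts is 0.181 to 0.280 CPM.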
